A study of Mus musculus with 20 samples.

Results

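Skin and pancreas were each driven into chronic inflammation, and the genes described here are those whose RNA response differed between the tissues. The difference tested was the change with 2,4-dinitro-1-fluorobenzene (DNFB) over acetone in skin minus the change with caerulein over phosphate-buffered saline (PBS) in pancreas, in 1 edgeR fit of all 20 libraries, 5 per group. Of 5020 genes with enough counts to be tested, 50 passed an adjusted p of 0.05 (Benjamini-Hochberg), which is 0.996% of the genes tested. In 18 of them (0.359%) the response was higher in skin than in pancreas, and in 32 (0.637%) it was lower in skin than in pancreas. The count depends on which libraries are compared: with the label number set (1 to 10 or 11 to 20) as a covariate edgeR called 0 genes, with 1044 at an unadjusted p under 0.05, and with the level of the Y-linked genes as a covariate 0, with 934. Label numbers 1 to 10 alone gave 0 called genes of 5255 tested by edgeR (199 at an unadjusted p under 0.05). Numbers 11 to 20 alone gave 2292 of 11069 tested.

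The skin libraries were made from epidermis of the back of wild-type C57BL/6 mice. The skin protocol used male and female mice aged 4 to 6 weeks at the first sensitisation. DNFB is a contact allergen: the mice were sensitised on the abdomen and then challenged on the back 3 times per week for 22 days, and the acetone group serves as its vehicle control, the vehicle being acetone with olive oil. Caerulein mice were also wild-type and received 50 µg/kg by intraperitoneal injection, 6 hourly injections a day on 3 days a week for 3 weeks, with PBS injections as the control. The labels number the libraries from 1 to 20 across all groups and do not say which mouse, sex or day each came from, so the p-values measure the spread between these libraries. Both tissues are mixtures of cells, and in bulk RNA fewer cells of a type and less RNA per cell cannot be told apart.

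DNFB is a hapten: it couples to skin proteins and sets off T cell-driven contact dermatitis, with neutrophils and other leukocytes entering the skin. Caerulein acts like cholecystokinin on pancreatic acinar cells, which make and secrete the digestive enzymes, and overstimulation injures these cells, draws in macrophages and lowers enzyme expression. Cytokine feedback inhibitors, immediate early genes and myeloid genes can rise in inflamed tissues of both kinds, and the comparison asks where the tissues part.

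The depth of the libraries was low and uneven. Each held between 791491 and 2232039 expected counts, but 12 genes that match mouse satellite repeats (Gm10800 and its relatives, left out of every fit) took 37.85% to 94.32% of them. This left 69592 to 1073987 usable counts per library. Levels are given as normalised counts per 1000000 (CPM), which use the library size after scaling by the trimmed mean of M values (TMM). The detection floor of a group is 3 counts in each library, averaged over its 5 libraries, which is 23.1 normalised CPM in acetone, 11.5 in DNFB, 51.8 in PBS and 18.4 in caerulein. Acetone libraries 11 and 12 stand apart, with 1073987 and 938689 usable counts against 92640 to 152978 in acetone libraries 1, 2 and 3. They hold 84.5% of the usable counts of the acetone group. The tissue labels held: the keratin Krt14 was at 352 to 9940 normalised CPM in skin libraries and at most 13.5 in pancreas libraries, and the acinar carboxypeptidase Cpa1 was at 852 to 116000 in pancreas libraries and at most 29 in skin libraries.

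**Figure D1:**
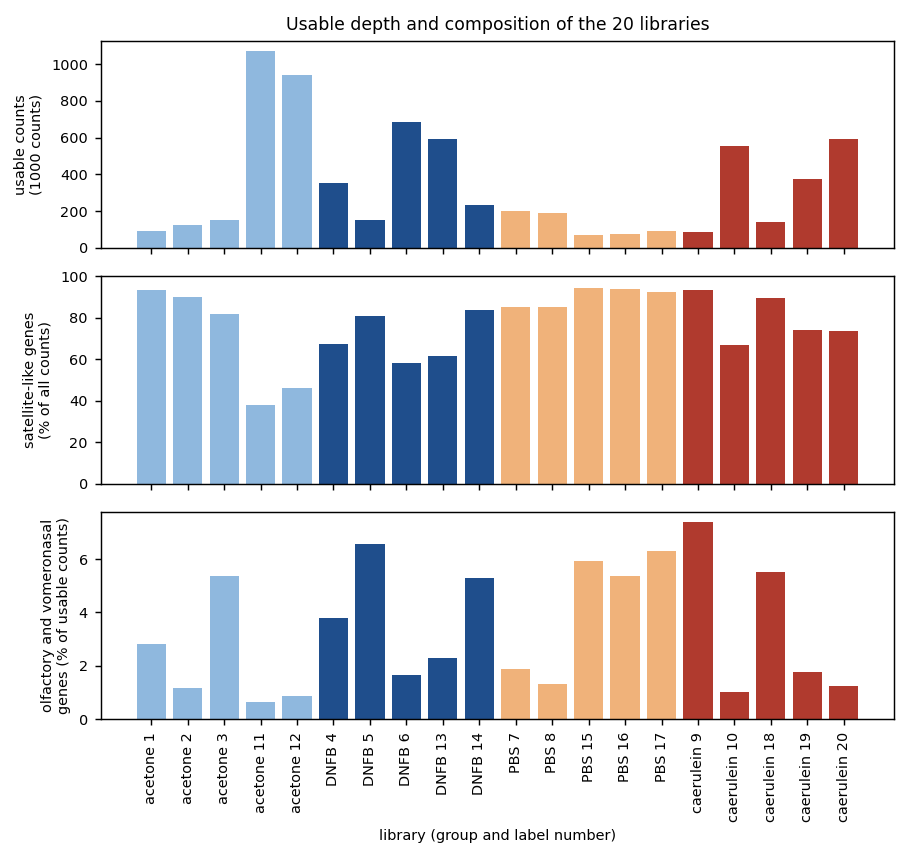
Usable counts (top), percent of all counts in satellite-like genes (middle) and percent of usable counts in olfactory and vomeronasal receptor genes (bottom) for each of the 20 libraries, coloured by group. Acetone 11 and 12 have the most usable counts (1073987 and 938689) and the lowest satellite-like shares (37.85% and 46.0%), and PBS 15 to 17 and caerulein 9 have 69592 to 90019 usable counts and receptor shares of 5.346% to 7.388%.

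In 48 of the 50 genes the fitted responses had opposite signs in the tissues, against 61.5% of all genes tested. Choosing genes by a large difference of responses favours opposite signs, and 0 of the 50 passed the test in both tissues. All 32 genes with the lower response in skin had a positive fitted response to caerulein and a negative one to DNFB, with a median log2 fold change of 3.21 in pancreas and -1.95 in skin. The 18 genes with the higher response in skin all had a negative fitted response to caerulein, and in 16 of them the response to DNFB was positive, with medians of -2.31 in pancreas and 1.68 in skin. The median over all 5020 genes was 0.36 in pancreas and 0.03 in skin, and the median difference was -0.45. These within-tissue values come from the libraries that chose the genes and are a description.

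**Figure D2:**
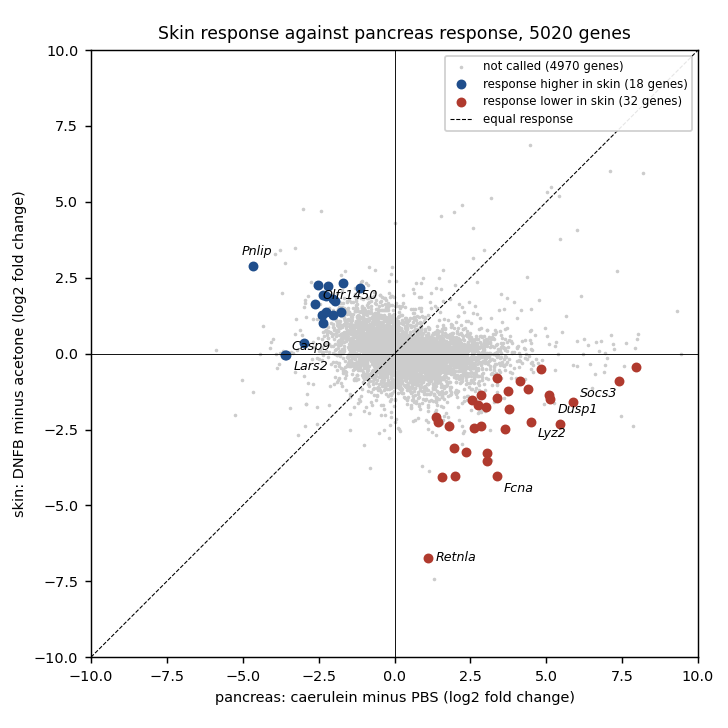
Fitted log2 fold change in skin (DNFB minus acetone, vertical) against that in pancreas (caerulein minus PBS, horizontal) for 5020 genes, with the 50 called genes in colour and the line of equal response dashed. The 32 genes with the lower response in skin lie to the lower right, where the fitted response is positive in pancreas and negative in skin. The 18 with the higher response in skin lie to the upper left, with Lars2 and Casp9 near the line of no change in skin.

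In the fit of all libraries, most of the genes that passed the test within a tissue passed it in pancreas. The tissue behind each difference was read from the within-tissue tests of the same fit: 27 of the 50 genes passed the adjusted p of 0.05 in pancreas alone (17 of the 32 and 10 of the 18), 1 passed in skin alone, 0 in both and 22 in neither. With the satellite-like share of each library as a covariate, this split became 10 in pancreas alone and 10 in skin alone. The background differs between the tissues, since 177 of 5020 genes (3.53%) were called for caerulein against PBS, 139 higher and 38 lower, and 11 genes (0.219%) for DNFB against acetone, 8 higher and 3 lower. Where responses had opposite signs, the pancreas share of the summed absolute change could be given. Its median was 63.0% in the 32 genes (14.1% to 94.8%) and 55.5% in 16 of the 18 genes (34.7% to 89.0%). It was above 50% in 21 of the 32 and in 13 of the 16. The shares of Cdc42se2 (94.8%), Sptssa (89.1%), Tmem45a (70.1%) and Pnlip (61.8%) involve a group at 0 counts and depend on the prior count of the fit. Lars2 and Casp9 have no such share, as both fitted responses were negative, at -3.57 and -3.62 in pancreas and -0.06 and -0.05 in skin.

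The groups were also compared library by library. Among the 32 genes, the caerulein and PBS libraries did not overlap in 9 and the DNFB and acetone libraries in 5, with no gene separate in both tissues. Among the 18 genes the counts were 10 in pancreas and 3 in skin, with 1 gene, Olfr1450, separate in both. Over all genes tested, 173 (3.45%) did not overlap in pancreas and 72 (1.43%) in skin. Caerulein libraries 10, 19 and 20 (555718, 376579 and 591505 usable counts) each lay above every PBS library in 24 of the 32 genes. Caerulein 9 and 18 (87788 and 139588 usable counts) both did so in 11 of the 32. In 14 of the 32 no PBS library held more than 3 counts.

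Acetone libraries 11 and 12 held most of the acetone counts of the 32 genes and of the acetone group as a whole. They had 74.7% to 99.8% of the acetone counts of these genes (median 95.8%), beside 84.5% of the acetone usable counts, and in 23 of the 32 both lay above acetone libraries 1, 2 and 3. In 29 of the 32 both lay above every DNFB library. Without these 2 libraries edgeR called 0 genes at an adjusted p of 0.05, with 659 genes at an unadjusted p under 0.05. All 50 genes kept the sign of their difference, though the remaining libraries had also taken part in choosing them. Without them the median skin response of the 32 genes was -0.76 in place of -1.95, with 22 of the 32 responses still negative and 30 of the 32 closer to 0, and the median difference was -4.07 in place of -5.56. The median skin response of the 18 genes was then 1.04 in place of 1.68.

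The promoters of Socs3 and Pnlip can be read in RefSeq (GRCm38.p6, 250 bases before to 50 after the start that RefSeq gives). Both windows lie inside the gene spans given below, which come from GENCODE M21 and begin elsewhere. Socs3 and Pnlip are shown because Socs3, a feedback inhibitor of STAT signalling, rose with caerulein and was called in 19 of 20 fits that left out 1 library, and Pnlip, pancreatic lipase, fell with caerulein. The Socs3 promoter is at chr11:117969317-117969616 on the minus strand, and its capitals mark a match to the STAT letters TTCNNNGAA that begins 154 bases before the start. The Pnlip promoter is at chr19:58670115-58670414 on the plus strand, and its capitals mark TATAAA, 30 bases before the start, and a match to the AP-1 letters TGANTCA after it.
Socs3: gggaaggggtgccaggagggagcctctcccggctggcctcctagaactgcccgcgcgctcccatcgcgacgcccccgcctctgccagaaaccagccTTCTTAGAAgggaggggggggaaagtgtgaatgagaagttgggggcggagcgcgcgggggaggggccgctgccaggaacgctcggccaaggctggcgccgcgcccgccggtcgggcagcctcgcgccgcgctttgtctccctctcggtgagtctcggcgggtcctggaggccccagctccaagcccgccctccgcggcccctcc
Pnlip: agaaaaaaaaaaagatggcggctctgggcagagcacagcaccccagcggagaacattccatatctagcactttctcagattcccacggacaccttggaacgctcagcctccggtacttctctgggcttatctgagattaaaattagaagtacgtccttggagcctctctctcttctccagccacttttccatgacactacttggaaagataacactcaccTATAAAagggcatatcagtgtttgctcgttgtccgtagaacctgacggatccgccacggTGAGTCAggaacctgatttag

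These motifs were searched on both strands, and the shares are a description. Among the 32 genes, 27 had a promoter in the table, and 4 of them (14.8%) held the STAT letters (C1ra, Prss23, Socs3 and Tsc22d3), 3 (11.1%) the AP-1 letters and 8 (29.6%) TATAAA. Among the 18 genes, 11 had one, and 1 (9.1%) held the STAT letters, 3 (27.3%) the AP-1 letters and 4 (36.4%) TATAAA. Of all 27025 genes with a promoter, 9.6% held the STAT letters, 9.0% the AP-1 letters and 15.7% TATAAA. A gene counts here if any of its promoters held the letters.

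Fcna and Retnla, 2 genes of resident and alternatively activated macrophages, were higher in acetone libraries 11 and 12 than in every DNFB library. Fcna (ficolin A, a lectin that starts the complement cascade, chr2:25624666-25628030) was at 29.4, 13.1, 7.97, 101 and 143 normalised CPM in acetone libraries 1, 2, 3, 11 and 12, and at 0, 0, 6.82, 4.19 and 4.83 in DNFB libraries 4, 5, 6, 13 and 14. It was at 0, 67.6, 20.1, 50.8 and 50.8 in PBS libraries 7, 8, 15, 16 and 17, and at 24.6, 1225, 148, 525 and 87.2 in caerulein libraries 9, 10, 18, 19 and 20. Every acetone library lay above every DNFB library, though acetone 1, 2 and 3 held 2, 1 and 1 counts, and the closest values were 7.97 in acetone 3 (1 count) and 6.82 in DNFB 6 (3 counts). Caerulein 9 lay within the PBS libraries. The log2 difference of the responses was -7.40 ± 1.36 (SE, edgeR adjusted p = 0.0357), from -4.04 in skin (adjusted p = 0.0961) and 3.36 in pancreas (adjusted p = 0.0415). Of these the pancreas response passed the test on its own and the skin response did not. Fcna was the single gene called in all 20 fits that left out 1 library, with a highest adjusted p of 0.0485 without PBS 15.

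Retnla (resistin-like alpha, a marker of alternatively activated macrophages, chr16:48842551-48844461) was the 1 gene with a called response in skin alone. Its level was 0, 65.6, 7.97, 1726 and 1552 normalised CPM in acetone libraries 1, 2, 3, 11 and 12 and 2.93, 0, 11.4, 10.5 and 0 in DNFB libraries 4, 5, 6, 13 and 14. In pancreas it was at 0, 27.1, 20.1, 170 and 50.8 in PBS libraries 7, 8, 15, 16 and 17 and at 160, 34.9, 109, 166 and 117 in caerulein libraries 9, 10, 18, 19 and 20. The high skin values are those of acetone 11 and 12 alone, and the other 3 acetone libraries overlapped the DNFB libraries. The log2 difference was -7.82 ± 1.66 (SE, edgeR adjusted p = 0.0357), with a skin response of -6.72 (adjusted p = 0.0261) and a pancreas response of 1.10 (adjusted p = 0.537). The difference was called in 14 of 20 fits that left out 1 library, and its adjusted p was 0.0675 without acetone 11.

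Socs3 and Dusp1, which feed back on cytokine and kinase signalling, rose with caerulein, and their skin responses did not pass the test. Socs3 (suppressor of cytokine signalling 3, chr11:117966079-117970047) was at 0 in 4 PBS libraries and at 13.5 normalised CPM in PBS 8, which is 1 count, against 36.9, 623, 69.2, 222 and 147 in caerulein libraries 9, 10, 18, 19 and 20. In skin it was at 73.4, 118, 15.9, 390 and 456 in acetone libraries 1, 2, 3, 11 and 12 and at 87.8, 28.4, 97.8, 103 and 33.8 in DNFB libraries 4, 5, 6, 13 and 14. Every caerulein library lay above every PBS library, and the skin groups overlapped, with acetone 11 and 12 on top. The log2 difference for Socs3 was -7.49 ± 1.43 (SE, edgeR adjusted p = 0.0357), with a pancreas response of 5.88 (adjusted p = 0.0188) and a skin response of -1.61 (adjusted p = 0.704). With 1 count in all PBS libraries the pooled caerulein to PBS ratio of Socs3 was 86.2, with an exact counting interval of 15.4 to 3415 (95%). The difference was called in 19 of 20 fits that left out 1 library, the exception being the fit without caerulein 10 (adjusted p = 0.0645).

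Dusp1 is a phosphatase that switches off MAP kinases. Dusp1 (chr17:26505590-26562128) was at 0, 81.2, 0, 50.8 and 33.9 normalised CPM in PBS libraries 7, 8, 15, 16 and 17 and at 209, 4145, 346, 949 and 520 in caerulein libraries 9, 10, 18, 19 and 20. In skin the acetone libraries ran from 15.9 to 3102 (median 1076) and the DNFB libraries from 269 to 763 (median 430). The caerulein libraries all lay above the PBS libraries, and the acetone libraries spread on both sides of the DNFB libraries. The log2 difference was -6.61 ± 1.53 (SE, edgeR adjusted p = 0.0468), with a pancreas response of 5.13 (adjusted p = 0.0252) and a skin response of -1.48 (adjusted p = 0.913). It was called in 10 of 20 fits that left out 1 library, and its adjusted p was 0.109 without caerulein 10. Of 22 tested genes of the immediate early and stress response list, Dusp1 was the 1 called with TMM over all libraries. Library totals called 11 of them, TMM within each tissue 4 and upper quartile factors 1. Of all 5020 genes tested the same scalings called 50, 416, 185 and 26, in that order. The median difference of the list was -3.05 against -0.45 over all genes. Of the others, Atf3 was at -4.30 (adjusted p = 0.0726), Junb at -4.40 (0.0955) and Fos at -3.83 (0.123), by edgeR.

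Tnfaip3, Tsc22d3, Ppp1r15a and Anxa1 were also among the 32 genes, and are set side by side here after their values were seen. Tnfaip3, which encodes the NF-κB inhibitor A20, differed by -4.08 ± 0.96 (SE, edgeR adjusted p = 0.0475). Tsc22d3, a glucocorticoid-induced leucine zipper protein, differed by -4.80 ± 1.20 (adjusted p = 0.0496, edgeR). Ppp1r15a, the GADD34 subunit that restores translation after stress, differed by -5.55 ± 1.19 (adjusted p = 0.0357, edgeR). Anxa1, the glucocorticoid-regulated annexin A1, differed by -6.45 ± 1.41 (adjusted p = 0.0385, edgeR).

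The levels of Anxa1 show how little RNA the PBS side of such differences held. Anxa1 (chr19:20373428-20390944) had 3 counts in the PBS group, 1 each in PBS 8, 15 and 17, and lay at 24.6, 930, 29.7, 199 and 593 normalised CPM in caerulein libraries 9, 10, 18, 19 and 20. The pooled caerulein to PBS ratio of Anxa1 was 50.6, with an exact counting interval of 17.2 to 246. In skin it ranged from 175 to 1640 in the acetone group and from 191 to 789 in the DNFB group, and these overlapped. The caerulein libraries all lay above the PBS libraries, and caerulein 9 and 18 rested on 2 and 3 counts. The pancreas response of Anxa1 passed the test (5.08, edgeR adjusted p = 0.0250), and the skin response of -1.37 did not (adjusted p = 0.867). Among 13 tested genes of the duct and acinar-to-ductal metaplasia list, Anxa1 was the 1 called, with a list median difference of -2.57, or -2.33 with the groups at 0 set to their detection floor.

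Macrophage and antigen presentation genes had 24 tested members, of which 3 were called (Lyz2, H2-Aa and C1qc), all with the lower response in skin. The number called was 12 with library totals, 10 with TMM within each tissue and 0 with upper quartile factors. These scalings called 416, 185 and 26 of all 5020 genes tested. All 24 had a negative difference with TMM over all libraries, with a median of -3.84 against -0.45 over all genes. The list had a median response of 2.5 in pancreas, where 6 of 24 rose past the threshold and 0 fell by edgeR. Of all 5020 genes tested, 139 rose and 38 fell past it in pancreas. In skin the list had a median response of -0.76, and 0 passed in either direction. H2-Ab1 (-5.04), H2-Eb1 (-4.76), Cd74 (-4.69) and Csf1r (-4.87) lay just outside the threshold, with adjusted p of 0.0538, 0.0538, 0.0557 and 0.0567 by edgeR. The summed level of the macrophage list ran from 1135 to 13270 normalised CPM in PBS libraries and from 5097 to 57770 in caerulein libraries. In skin the sum ran from 1130 to 30290 in acetone and from 3926 to 12090 in DNFB libraries, with medians of 5877 and 6270.

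Lyz2 (lysozyme of macrophages and granulocytes, chr10:117277331-117282321) had its highest levels in caerulein libraries 10 and 19. It was at 56.2, 1015, 60.3, 33.9 and 50.8 normalised CPM in PBS libraries 7, 8, 15, 16 and 17 and at 467, 15370, 969, 8509 and 2415 in caerulein libraries 9, 10, 18, 19 and 20. It was at 88.1, 236, 47.9, 2554 and 2828 in acetone libraries 1, 2, 3, 11 and 12 and at 64.4, 269, 255, 278 and 338 in DNFB libraries 4, 5, 6, 13 and 14. In pancreas PBS 8 alone reached into the caerulein range, and in skin acetone 11 and 12 alone lay above the DNFB range. The log2 difference of Lyz2 was -6.75 ± 1.65 (SE, edgeR adjusted p = 0.0494), with a pancreas response of 4.49 (adjusted p = 0.0411) and a skin response of -2.27 (adjusted p = 0.767). It was called in 7 of 20 fits that left out 1 library, and its adjusted p was 0.109 without caerulein 10. Lyz2 has a close paralogue in Lyz1, and how reads shared by both were divided is not given in the sources used here.

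The antigen presentation gene H2-Aa and the complement genes moved alike. H2-Aa (an MHC class II alpha chain, chr17:34282744-34287823) was at 56.2, 149, 121, 153 and 50.8 normalised CPM in PBS libraries 7, 8, 15, 16 and 17 and at 172, 970, 386, 1383 and 687 in caerulein libraries 9, 10, 18, 19 and 20, with no overlap. In acetone libraries 1, 2, 3, 11 and 12 H2-Aa was at 29.4, 210, 31.9, 506 and 922, and the DNFB libraries lay between 73.2 and 125, inside that range. Its log2 difference was -4.46 ± 1.10 (SE, edgeR adjusted p = 0.0496), from 2.76 in pancreas (adjusted p = 0.0515) and -1.70 in skin (adjusted p = 0.704), so neither tissue passed on its own. C1qc, a subunit of complement C1q made by macrophages, differed by -6.57 ± 1.66 (adjusted p = 0.0496, edgeR), and its level ran from 0 to 443 in acetone, 2.09 to 49.6 in DNFB, 0 to 176 in PBS and 39.8 to 1225 in caerulein libraries.

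Complement genes made by stromal and epithelial cells stood beside them. C1ra, the C1r protease, differed by -6.10 ± 1.3 (SE, edgeR adjusted p = 0.0357). Its pancreas response was 3.63 (adjusted p = 0.0345) and its level ran from 0 to 108 normalised CPM in PBS and from 79.1 to 1080 in caerulein libraries, overlapping at PBS 8. C3, the central complement component, differed by -5.06 ± 1.24 (adjusted p = 0.0494, edgeR), with -3.11 in skin and 1.95 in pancreas, neither of which passed alone. Together with Fcna and C1qc, 4 of the 32 genes thus encode complement components or a lectin that activates them, a grouping made after the values were seen.

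Ighm (the constant region of immunoglobulin M, chr12:113418558-113422730) reached its highest levels in caerulein libraries 10, 19 and 20. It was at 169, 744, 181, 542 and 678 normalised CPM in PBS libraries 7, 8, 15, 16 and 17 and at 381, 6832, 1256, 15600 and 7343 in caerulein libraries 9, 10, 18, 19 and 20. In skin Ighm was at most 102 in acetone and 38.6 in DNFB libraries. Caerulein 9 lay inside the PBS range and the other caerulein libraries above it. The log2 difference was -5.57 ± 1.40 (SE, edgeR adjusted p = 0.0496), with a pancreas response of 3.76 (adjusted p = 0.0379). Of 4 tested B and plasma cell markers Ighm was the 1 called, and the summed level of the 8 markers ran from 299.5 to 1389 in PBS and from 503.6 to 25570 in caerulein libraries. The part of B cell number in the Ighm difference was not tested.

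In Adh1 the skin groups were separate, and acetone libraries 1 and 2 were higher than 11 and 12. Adh1 (an alcohol dehydrogenase that acts on ethanol and retinol, chr3:138260991-138290698) was at 103, 131, 31.9, 39.8 and 42.2 normalised CPM in acetone libraries 1, 2, 3, 11 and 12 and at 8.78, 7.09, 11.4, 2.09 and 0 in DNFB libraries 4, 5, 6, 13 and 14. In pancreas it was at 37.4, 0, 0, 0 and 50.8 in PBS libraries 7, 8, 15, 16 and 17 and at 61.4, 10.8, 198, 35.9 and 421 in caerulein libraries 9, 10, 18, 19 and 20. Every acetone library lay above every DNFB library, acetone 1 and 2 highest, and the pancreas groups overlapped. The log2 difference of Adh1 was -6.34 ± 1.32 (SE, edgeR adjusted p = 0.0357), with -3.28 in skin (adjusted p = 0.175) and 3.06 in pancreas (adjusted p = 0.0614). It was called in 18 of 20 fits that left out 1 library, with a highest adjusted p of 0.0533, without PBS 15.

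In 4 further genes with a secreted product the fitted response was larger in skin than in pancreas, though it passed the test in skin in none of them (adjusted p of 0.0961 for Igfbp6, 0.228 for Gsn, 0.192 for Pltp and 0.189 for Prss23, edgeR). Igfbp6, an insulin-like growth factor binding protein, differed by -5.63 ± 1.3 (SE, edgeR adjusted p = 0.0468), and 27.7% of it came from pancreas. Its acetone libraries 1 and 3, at 14.7 and 0 normalised CPM, overlapped the DNFB libraries (0 to 19.3), and acetone 11 and 12 were at 107 and 137. Gsn, the actin-severing gelsolin, which also has a plasma form, had 42.2% from pancreas and a difference of -5.61 ± 1.33. In acetone 1 and 3 Gsn was at 220 and 239, inside the DNFB range (92.1 to 603), and acetone 11 and 12 were at 4034 and 7801. Pltp, which transfers phospholipid between lipoproteins, had 33.1% from pancreas and a difference of -6.04 ± 1.53. Its acetone libraries 1, 2 and 3, at 29.4, 13.1 and 0 normalised CPM, overlapped the DNFB libraries (5.86 to 22.7), and acetone 11 and 12 were at 370 and 580. Prss23, a secreted serine protease, had 43.0% from pancreas and a difference of -4.16 ± 1.03, and its DNFB libraries all lay under its acetone libraries. Of 18 tested fibroblast and extracellular matrix genes 0 were called by edgeR, with a list median of -1.62 and Fn1 at -3.99 (adjusted p = 0.117) and Col3a1 at -3.64 (adjusted p = 0.115).

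Cdc42se2 and Sptssa had the largest fitted differences, and both were at 0 in all 5 PBS libraries. Cdc42se2 encodes a small effector of CDC42 and Sptssa a subunit of serine palmitoyltransferase, the first enzyme of sphingolipid synthesis. Cdc42se2 (chr11:54717456-54787675) was at 0, 113, 49.4, 124 and 309 normalised CPM in caerulein libraries 9, 10, 18, 19 and 20, and their mean of 119 was at least 2.3-fold higher than the detection floor of PBS (51.8 normalised CPM). Caerulein 9 and 18 lay under that floor. Sptssa (chr12:54645392-54656573) was at 24.6, 99.4, 19.8, 71.8 and 177, and their mean of 78.5 was at least 1.52-fold higher than that floor, with caerulein 9 and 18 again under it. Their fitted differences of -8.40 ± 1.87 and -8.28 ± 1.79 (SE, edgeR adjusted p = 0.0468 and 0.0443) depend on the prior count of the fit and are not bounds. Tmem45a, a transmembrane protein, was also at 0 in PBS, and its caerulein levels of 0 to 32.4 CPM lie under that floor, so no pancreas fold is given. In skin Tmem45a ran from 63.8 to 735 in acetone and from 43.4 to 155 in DNFB libraries, a log2 response of -2.33 (adjusted p = 0.192). With these 3 genes at their floor, the median pancreas response of the 32 genes was 2.94 in place of 3.21.

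Further members of the 32 genes had differences from -3.71 to -5.25. They are Rps12-ps3, Cav1, Efemp1, Rassf4, Cnn2, Cbr2, Pmp22 and Ctsh. Rps12-ps3 is a copy of the ribosomal protein gene Rps12, and reads of both may have been divided between them, so its difference of -5.03 ± 1.01 (SE, edgeR adjusted p = 0.0357) is uncertain in its gene. It was called in 18 of 20 fits that left out 1 library. Cav1, the main protein of caveolae, differed by -4.22 ± 0.91 (adjusted p = 0.0357, edgeR), and its caerulein libraries did not overlap its PBS libraries.

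**Figure D3:**
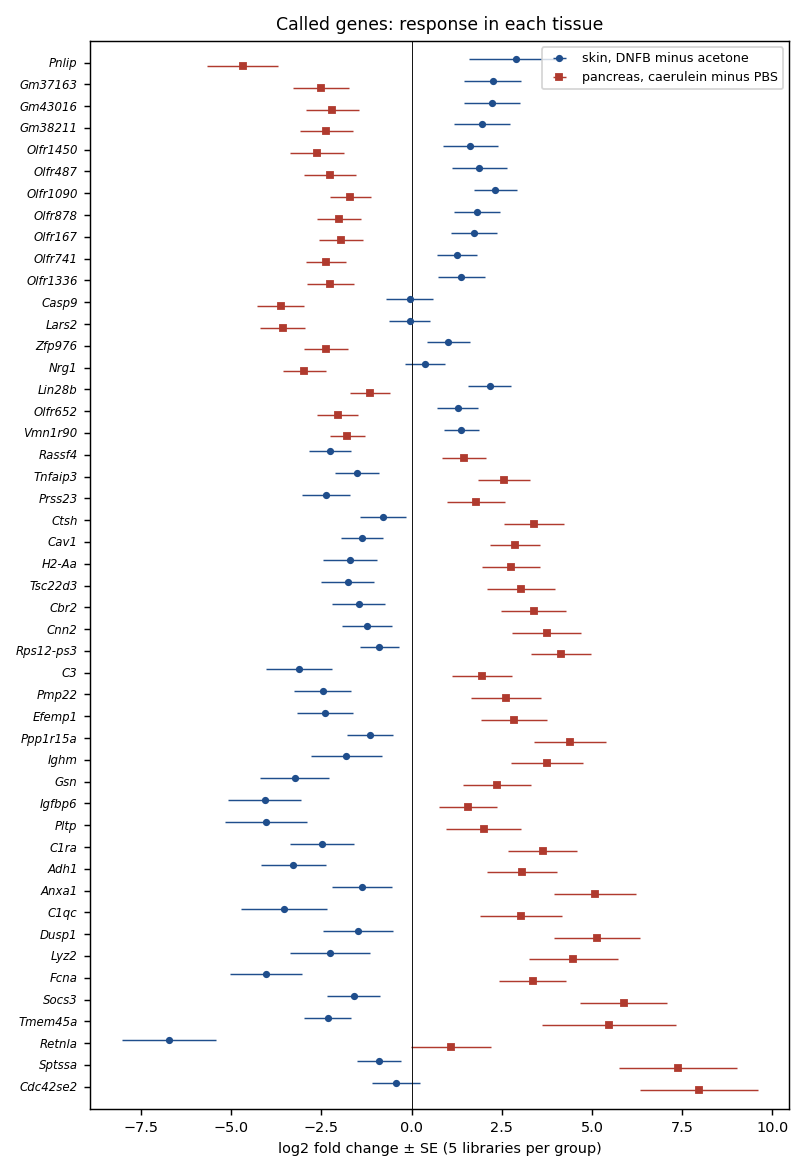
Fitted log2 fold change ± SE of 48 called genes in skin (circles, DNFB minus acetone) and in pancreas (squares, caerulein minus PBS), ordered by their difference from Pnlip at the top (7.56) to Cdc42se2 at the bottom (-8.40). Both end values include a group with 0 counts (acetone for Pnlip, PBS for Cdc42se2) and depend on the prior count of the fit. In 46 of these 48 genes the circle and the square lie on opposite sides of 0, and in Retnla the skin value (-6.72) is much farther from 0 than the pancreas value (1.10).

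Among the 18 genes with the higher response in skin, Pnlip was the digestive enzyme. Pnlip (pancreatic triglyceride lipase, chr19:58652498-58681788) was at 88210, 47910, 12490, 6693 and 16400 normalised CPM in PBS libraries 7, 8, 15, 16 and 17 and at 1511, 287, 3816, 499 and 627 in caerulein libraries 9, 10, 18, 19 and 20. It had 0 counts in every acetone library and at most 3 counts in a DNFB library (5 over the group), so no skin response is given. All PBS libraries lay above all caerulein libraries, and the lowest PBS level was above the highest caerulein level of 3816. The pancreas response was -4.67 (edgeR adjusted p = 0.0250) and the fitted difference was 7.56 ± 1.80 (SE, edgeR adjusted p = 0.0494). This difference holds a skin part fitted from 5 counts against 0, depends on the prior count and is not a bound. With the acetone group of Pnlip at its floor, the median skin response of the 18 genes was 1.5 in place of 1.68. Pnlip was called in 7 of 20 fits that left out 1 library, with an edgeR adjusted p of 0.108 without caerulein 10.

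Pnlip was 1 of 42 tested acinar genes and the 1 called for the difference with TMM over all libraries. Library totals called 8 of the 42, TMM within each tissue 7 and upper quartile factors 0. All 5020 genes tested gave 50, 416, 185 and 26 calls under the same scalings, in that order. In pancreas 13 of the 42 fell with caerulein and 3 rose past the threshold, against 38 and 139 of all 5020 genes. Zg16 (7.22), Clps (6.78), Cpa1 (7.21), Ctrb1 (7.79) and Prss2 (6.59) had fitted differences near that of Pnlip with adjusted p between 0.0567 and 0.0632 by edgeR. Cpa1 and Ctrb1 were at 0 in every acetone library and at most 29.0 and 72.4 normalised CPM in a DNFB library. Their fitted differences thus depend on the prior count and are not bounds. The pancreas responses alone were -3.79 for Cpa1 and -3.01 for Ctrb1. The list median was 3.76, or 2.89 with groups at 0 set to the detection floor. The acinar list took 12.2% to 56.52% of usable counts in PBS libraries, 1.9% to 18.89% in caerulein libraries and at most 0.07% in skin libraries. Trypsin and amylase genes of the list are near-identical copies whose reads may have been divided between them.

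Lars2 and Casp9 fell with caerulein, and their skin responses did not pass the test. Lars2 (the mitochondrial leucyl-tRNA synthetase, chr9:123366927-123462666) was at 57270, 37120, 28720, 33250 and 22780 normalised CPM in PBS libraries 7, 8, 15, 16 and 17 and at 4225, 2566, 4350, 2753 and 1153 in caerulein libraries 9, 10, 18, 19 and 20. In skin Lars2 was at 910, 1535, 1013, 1105 and 871 in acetone libraries 1, 2, 3, 11 and 12 and at 987, 659, 1532, 1103 and 941 in DNFB libraries 4, 5, 6, 13 and 14. The PBS libraries were all above the caerulein libraries, and the skin groups overlapped almost fully. The pancreas response was -3.57 (edgeR adjusted p = 0.00702) and the skin response -0.06, with a difference of 3.52 ± 0.82 (SE, edgeR adjusted p = 0.0475). The difference was called in 5 of 20 fits that left out 1 library, and its adjusted p was 0.109 without caerulein 10.

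Casp9, the initiator caspase of the mitochondrial death pathway (chr4:141793612-141815976), was separate in pancreas as well. It was at 693, 406, 141, 67.8 and 203 normalised CPM in PBS libraries 7, 8, 15, 16 and 17 and at 36.9, 26.9, 19.8, 13.1 and 27.4 in caerulein libraries 9, 10, 18, 19 and 20, with no overlap. In skin it ran from 21.7 to 58.7 in acetone and from 7.09 to 82.1 in DNFB libraries. Across PBS libraries 7, 8, 15, 16 and 17 Casp9 ranked as did the acinar list share of usable counts (56.52%, 46.46%, 20.7%, 12.2% and 26.33%). Across caerulein libraries the 2 orders differed. The part of acinar content, or of reads from overlapping genes, in the Casp9 response was not tested. The pancreas response of Casp9 was -3.62 (edgeR adjusted p = 0.00768) and the difference 3.57 ± 0.90 (SE, edgeR adjusted p = 0.0496), called in 5 of 20 fits that left out 1 library. Nrg1, a growth factor that acts through ERBB receptors, also took most of its difference of 3.33 ± 0.81 from pancreas (89.0%).

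Olfactory and vomeronasal receptors, which serve smell and pheromone detection in nasal neurons, made up 9 of the 18 genes. The 9 are Olfr1090, Vmn1r90, Olfr741, Olfr878, Olfr167, Olfr652, Olfr1450, Olfr487 and Olfr1336, with differences from 3.16 to 4.23. Of the 5020 genes tested, 309 were such receptors. Olfr1450 (chr19:12950258-12956406) was at 0, 13.1, 7.97, 10.9 and 13.1 normalised CPM in acetone libraries 1, 2, 3, 11 and 12 and at 17.6, 63.8, 13.6, 44.0 and 29.0 in DNFB libraries 4, 5, 6, 13 and 14. It was at 37.4, 162, 80.4, 119 and 84.7 in PBS libraries 7, 8, 15, 16 and 17 and at 12.3, 8.06, 0, 22.8 and 27.4 in caerulein libraries 9, 10, 18, 19 and 20. Neither tissue overlapped, though no library held more than 21 counts of it. The log2 difference was 4.23 ± 1.07 (SE, edgeR adjusted p = 0.0496), called in 6 of 20 fits that left out 1 library, with an adjusted p of 0.110 without caerulein 10.

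Olfr1090 also had separate skin groups. Olfr1090 (chr2:86752724-86758993) was at 0, 13.1, 31.9, 21.7 and 33.5 normalised CPM in acetone libraries 1, 2, 3, 11 and 12 and at 79.0, 220, 116, 79.6 and 96.5 in DNFB libraries 4, 5, 6, 13 and 14. In pancreas it was at 262, 149, 483, 153 and 508 in PBS libraries 7, 8, 15, 16 and 17 and at 184, 61.8, 109, 75.0 and 64.7 in caerulein libraries 9, 10, 18, 19 and 20. The skin groups did not overlap, and in pancreas caerulein 9 lay above PBS 8 and 16. Its log2 difference was 4.02 ± 0.82 (SE, edgeR adjusted p = 0.0357), from 2.33 in skin (adjusted p = 0.108) and -1.69 in pancreas (adjusted p = 0.0694). It was called in 11 of 20 fits that left out 1 library.

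Most receptor genes had a positive difference, and their share of the counts varied between libraries. Of 309 tested receptor genes, 303 had a positive difference, with a median of 1.72 against -0.45 over all genes. By edgeR 9 of the 309 were called, all with the higher response in skin, against 18 of all 5020 genes tested (0.359%). Together these receptors took 0.637% to 5.347% of usable counts in acetone, 1.674% to 6.572% in DNFB, 1.332% to 6.303% in PBS and 1.027% to 7.388% in caerulein libraries. The lowest shares, 0.637% and 0.877%, were in acetone 11 and 12, and the highest, 7.388%, in caerulein 9, a library with 87788 usable counts. The receptor list was drawn up after its genes were seen among those called. The part of library make-up in the receptor differences was not tested.

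The unnamed gene models Gm37163, Gm43016 and Gm38211 followed the receptors. Gm37163 (chr1:130727132-130728821), annotated as to be experimentally tested, ran from 0 to 39.9 normalised CPM in acetone and from 14.7 to 113 in DNFB libraries. In pancreas it ran from 67.6 to 220 in PBS and from 2.69 to 49.4 in caerulein libraries, which did not overlap. Its difference was 4.76 ± 1.11 (SE, edgeR adjusted p = 0.0475). Gm43016, a long intergenic noncoding RNA, differed by 4.43 ± 1.06 and Gm38211 by 4.30 ± 1.06 (adjusted p = 0.0480 and 0.0494, edgeR), and the groups of both overlapped in both tissues. The remaining 2 of the 18, Lin28b, which blocks maturation of let-7 microRNAs, and the zinc finger gene Zfp976, differed by 3.32 ± 0.82 and 3.39 ± 0.86.

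**Figure D4:**
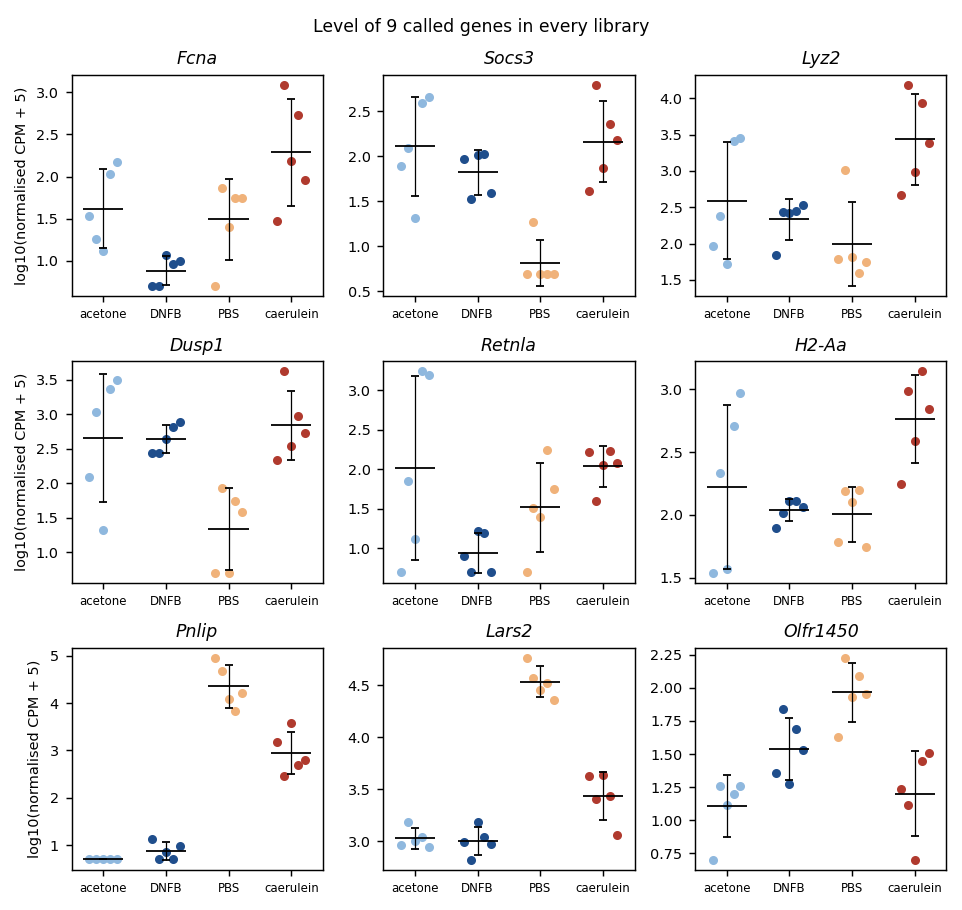
Level of 9 called genes in each library, as log10 of normalised CPM plus 5, by group (5 libraries each, in label order from left to right). Lines mark the mean of these log values and bars 1 SD. PBS and caerulein points are separate for Socs3, Dusp1, H2-Aa, Pnlip, Lars2 and Olfr1450, and in skin the acetone group is split by its 2 highest libraries for Retnla and Lyz2.

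S100a8 and S100a9, the calprotectin subunits of neutrophils and stressed keratinocytes, rose in skin and were not called as different between the tissues, and S100a8 also passed the test in pancreas. S100a8 was at 14.7, 13.1, 0, 8.45 and 5.83 normalised CPM in acetone libraries 1, 2, 3, 11 and 12 and at 49.8, 291, 105, 722 and 1294 in DNFB libraries 4, 5, 6, 13 and 14. It was at 0 in every PBS library and at 0, 465, 19.8, 111 and 112 in caerulein libraries 9, 10, 18, 19 and 20, whose mean of 141 was at least 2.73-fold higher than the PBS floor. Caerulein 9 and 18 lay under that floor. The skin groups did not overlap, and caerulein 9 had 0 counts like the PBS libraries. The skin response of S100a8 was 5.96 (edgeR adjusted p = 0.0261) and its pancreas response 8.19 (adjusted p = 0.0344), a value that depends on the prior count, since PBS was at 0. Its difference was -2.24 ± 2.81 (SE, edgeR adjusted p = 0.625). S100a9 rose by 6.89 in skin (edgeR adjusted p = 0.0261), its pancreas response was 4.46 (adjusted p = 0.0641, edgeR) and it had a difference of 2.43 ± 2.29 (adjusted p = 0.504, edgeR). The pooled caerulein to PBS ratio of S100a9 was 32.7, from 280 against 2 counts, with an exact counting interval of 8.97 to 271. These standard errors leave room for differences of several log2 units in either direction.

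Il33, the epithelial alarmin cytokine that the study is about, had too few counts to be tested. Il33 (chr19:29925114-29960718) was at 29.4, 78.7, 47.9, 60.3 and 83.0 normalised CPM in acetone libraries 1, 2, 3, 11 and 12 and at 14.6, 28.4, 22.7, 39.8 and 19.3 in DNFB libraries 4, 5, 6, 13 and 14. In pancreas it was at 37.4, 67.6, 0, 0 and 33.9 in PBS libraries 7, 8, 15, 16 and 17 and at 61.4, 234, 19.8, 22.8 and 19.9 in caerulein libraries 9, 10, 18, 19 and 20. Both pairs of groups overlapped, and caerulein 10 with 87 counts was the highest library. Of 5 tested genes of the TLR3/4 to IL-33 list 0 were called by edgeR. Past the threshold 2 of them rose in skin and 2 in pancreas, against 8 and 139 of all 5020 genes tested.

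In the other lists described here 0 genes were called for the difference by edgeR, apart from H2-Aa, which is also among 5 tested Langerhans cell markers. The neutrophil list had 13 tested genes, a median response of 4.13 in skin and 3.18 in pancreas and a median difference of 0.31. Of the list, 4 genes were called in skin and 5 in pancreas, all higher, against 8 and 139 higher of all 5020 genes tested. With groups at 0 set to their floor the median difference of the list was 1.02. Chaperones of the endoplasmic reticulum (27 tested) had a median difference of -1.56, cell cycle genes (21) -1.06, epidermal adhesion genes (15) -1.29, cornified envelope genes (14) 0.70, mitochondrial mRNAs (12) 0.04, keratins (11) -1.04 and acinar transcription factors (2) -0.97. Among markers of other cell types, the median difference was 3.49 for hair follicle (8 tested), 1.96 for melanocytes (5), -1.51 for skeletal muscle (5), -1.99 for red blood cells (5), 0.51 for islet cells (2), 0.30 for mast cells (1) and 0.09 for endothelial cells (1), and 0 T cell and adipocyte markers had enough counts. At the floor the keratin median was -0.02, the hair follicle median 1.07, the skeletal muscle median -0.72 and the islet median -0.65, so that these list values rest on genes absent from the other tissue.

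The threshold fell among closely spaced genes. The last genes inside it, such as Pltp and C1qc, had an adjusted p of 0.0496, and the first 5 outside were Cd55, Slc31a2, Cyb5a, Jak1 and Cd248 at 0.0504 (edgeR). Without the adjustment 1172 genes had p under 0.05, 789 with the lower and 383 with the higher response in skin. The split of the called genes moved with the scaling: 18 higher and 32 lower in skin with TMM over all libraries became 41 and 144 with TMM within each tissue, 22 and 394 with library totals alone and 11 and 15 with upper quartile factors. With limma voom it turned to 258 higher and 38 lower.

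The number of called genes depended on single libraries. Leaving out 1 library at a time gave 2 genes without caerulein 10 and 773 without acetone 3. Counts rose to 361 without acetone 1, 644 without PBS 8, 539 without caerulein 9, 398 without caerulein 18 and 136 without DNFB 6. They fell to 4 without acetone 11, 4 without acetone 12, 7 without DNFB 4, 17 without DNFB 5 and 24 without DNFB 14. They also fell to 22 without PBS 7, 3 without PBS 15, 19 without PBS 16, 6 without PBS 17, 13 without caerulein 19 and 20 without caerulein 20, and were 57 without acetone 2 and 40 without DNFB 13. In 39 of the 50 genes the highest adjusted p came without caerulein 10. The 50 genes kept their sign in these fits, which share most libraries with the fit that chose them. Of the 50, 10 were called in at least 14 of the 20, among them Fcna, Socs3, Adh1, Retnla, C1ra and Anxa1.

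**Figure D5:**
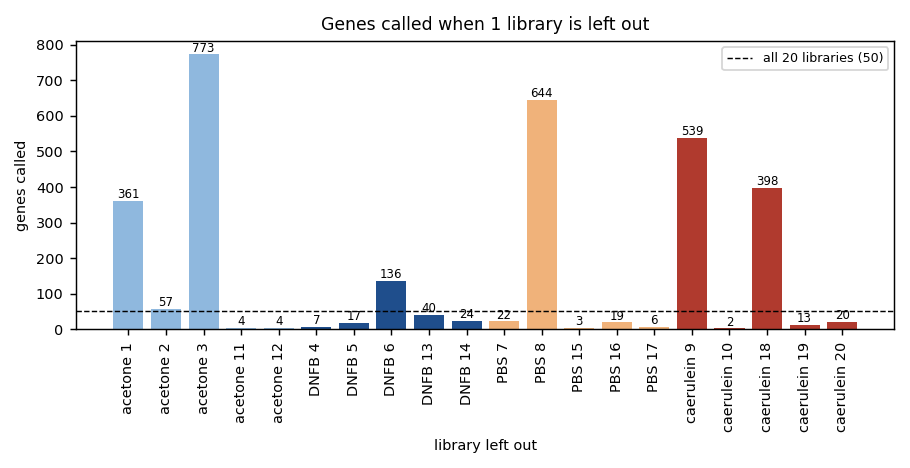
Number of genes called at an adjusted p of 0.05 (edgeR) when each of the 20 libraries is left out, with the count from all libraries (50) as a dashed line and bars coloured by group. The count runs from 2 (without caerulein 10) to 773 (without acetone 3).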

How the data were processed

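Per the labels, libraries were made from total RNA by a modified SMART-Seq2 protocol with Nextera XT, without molecular identifiers. The authors aligned reads to GRCm38 with STAR 2.5.3 and deposited RSEM 1.3.1 estimated counts per gene, and the submitters' notes also name DESeq2 1.24.0. Annotation, strand and treatment of multi-mapped reads are not given in the sources used here, so overlapping and duplicated genes are uncertain. Of the 55471 genes, 55230 were named from GENCODE M21, and 94.7% of the values were whole.

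The expected counts were rounded, and 12 satellite-like genes were removed: 11 shared at least 50% of the 15-base words of a transcript with Gm10800, Gm10801 or Gm21738, and Gm10715 was taken by name. Genes were filtered with filterByExpr (minimum count 10), scaled by TMM and fitted with the edgeR 4.0.16 quasi-likelihood test (R 4.3.3) with 4 group means and no covariate. The step was tested on simulated data. An SE is the log2 value divided by the square root of F. Adjusted p-values cover all genes tested. Depths, floors and intervals cover counting error only. DESeq2 1.42.0, limma 3.58.1 voom, other scalings, filters, thresholds and covariates were alternatives.

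Named genes are the 12 largest called differences in each direction with more than 3 counts in a library of each tissue, called members of the gene lists, S100a8, S100a9 and Il33. Further called genes were named after their values were seen. The genes and lists were chosen with earlier results of these data known. Some called genes are not reported here by name.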

Additional observations from a re-analysis of the deposited data

Results flagged for a closer look

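The difference between the tissues is itself what singled out 50 genes, each tested as an interaction. The log2 differences of those named here, all past an edgeR adjusted p of 0.05, were as follows. They were -8.40 for Cdc42se2, -8.28 for Sptssa, -7.82 for Retnla, -7.79 for Tmem45a, -7.49 for Socs3, -7.40 for Fcna, -6.75 for Lyz2, -6.61 for Dusp1 and -6.57 for C1qc. They were -6.45 for Anxa1, -6.34 for Adh1, -6.10 for C1ra, -5.57 for Ighm and -4.46 for H2-Aa. In the other direction they were 7.56 for Pnlip (fitted from 5 DNFB counts against 0 in acetone), 4.76 for Gm37163, 4.43 for Gm43016, 4.30 for Gm38211, 4.23 for Olfr1450, 4.15 for Olfr487, 4.02 for Olfr1090, 3.82 for Olfr878, 3.69 for Olfr167, 3.64 for Olfr741, 3.63 for Olfr1336, 3.57 for Casp9 and 3.52 for Lars2. Those of Cdc42se2, Sptssa, Tmem45a and Pnlip involve a group at 0 counts and are not bounds.

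In 6 of 115 groups of 5 libraries, 1 library lay far from the other 4 on the log2 scale, where chance at 1 in 20 gives about 5.8. The gap to the nearest library, as a share of the range, was 0.846 for Lyz2 in PBS 8, which was at 1015 normalised CPM against 33.9 to 60.3 in the other PBS libraries. It was 0.824 for Lyz2 in DNFB 4, which was at 64.4 against 255 to 338. It was 0.715 for Retnla in caerulein 10 (34.9 against 109 to 166) and 0.716 for Olfr1450 in acetone 1 (0 against 7.97 to 13.1). The ratio was 1.0 for Socs3 in PBS 8 and S100a9 in PBS 17, where 1 and 2 counts stood against 0 in the other PBS libraries.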

How the results depend on the processing

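Against 50 called of 5020 genes tested, library totals alone gave 416, TMM within each tissue 185, upper quartile factors 26 and limma voom 296. These fits tested the same number of genes, and DESeq2 called 857 of 16183 tested. The median difference of all genes, -0.45 with TMM over all libraries, was -0.89 with library totals, -0.54 with TMM within each tissue and -0.05 with upper quartile factors. Counts were 799 of 45063 genes tested with no filter and 54 of 11421 with a minimum count of 5. A minimum count of 20 gave 3 of 1537, and at least 10 counts in every library gave 6 of 44. The count was 22 of 8336 with satellite-like genes kept and 42 of 5020 with the satellite-like share as a covariate. At an adjusted p of 0.1 and 0.01 it was 308 and 0. Libraries thinned to equal depth (866 genes tested), the label number set (1 to 10 or 11 to 20) as a covariate, and the Y-linked genes as a covariate each gave 0 by edgeR, with 172, 1044 and 934 genes at an unadjusted p under 0.05. Without acetone libraries 11 and 12 the count was 0 (659 unadjusted), and leaving out 1 library gave 2 to 773.

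Chosen after seeing the data were 5 settings. Without the 5 libraries of lowest usable depth, 0 of 13307 genes tested were called by edgeR (2004 at an unadjusted p under 0.05). Label numbers 1 to 10 alone gave 0 of 5255 (199 unadjusted) and numbers 11 to 20 alone 2292 of 11069. Leaving out the receptor genes gave 121, of which 41 were among the 50, and the receptor share, which is built from those genes, as a covariate gave 0 (616). For settings at 0 the cause was not tested.

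The 27 genes with a called response in pancreas alone became 10 (satellite-like share), 16 (voom) and 1 (shallow libraries left out). The number ran from 3 to 41 when 1 library was left out. Some settings tested only part of the called genes. With at least 10 counts in every library it was 1 of 1 tested, and with a minimum count of 20, 14 of 23. It was 8 of 14 when thinned and 0 of 40 with numbers 1 to 10. The same genes were tested for the skin response. The 1 gene with a called response in skin alone became 9 with DESeq2, 2 with no filter, 2 when thinned, 10 with the satellite-like share and 4 with the receptor share. It became 0 with at least 10 counts in every library, the label set, the Y-linked genes, voom, numbers 1 to 10, or acetone 11 and 12 left out, and was 0 to 2 when 1 library was left out.

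Of 1117 values of the named genes under these settings, 1112 kept their sign. The other 5 belong to S100a8, at 1.68 with voom and 0.0023 with the receptor share, and S100a9, at -1.96 without the shallow libraries and -4.06 with numbers 1 to 10, and between -1.44 (without PBS 17) and 3.74 when 1 library was left out, and neither gene was called for the difference. Every called gene that could be tested kept its sign under each setting listed. The settings refit the libraries that chose these genes, or part of them, so the kept signs are a description and not independent support. No paired analysis was possible because the groups share no replicate numbers. Usable depth, 69592 to 1073987 counts per library, limits what could be tested to 5020 of 55471 genes.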
